A study of Homo sapiens with 10 samples.

Results

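The 87 protein-coding genes of the cytoplasmic ribosome were taken from GENCODE 29 by symbol (RPL or RPS and a number, with RPLP0, RPLP1, RPLP2 and RPSA). They are 46 genes of the large subunit, 31 of the small subunit and 10 paralogs of such genes, of 58676 annotated genes in all. Kinases of the RPS6K family, read-through genes and pseudogenes were left out. RNA editing sites were assigned to 49 of the 87 genes, and none to the other 38, among them RPLP0, RPL3, RPS2 and RPS6. A further 5 APOBEC1 and 13 ADARcd sites inside a ribosomal protein gene body were assigned to another gene there and are not counted.

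Ribosomal proteins assemble with ribosomal RNA into the large and the small subunit, which join the amino acids and read the message. Their mRNAs are short and abundant, are translated in step with growth signals through a run of pyrimidines at the 5′ end, and have many processed pseudogenes. In the erythroid lineage they are known from Diamond-Blackfan anaemia, in which a mutated ribosomal protein gene, most often RPS19, leads to a failure of red cell production.

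The cells were HUDEP-2, an immortalised human erythroid progenitor line. Each library expressed, after doxycycline, 1 fusion of FAM46C (gene TENT5C), a non-canonical poly(A) polymerase that adds A residues to mRNA tails, or of GFP as the control. Each was joined to a deaminase. APOBEC1 deaminates cytidine to uridine, and the ADAR catalytic domain (ADARcd) deaminates adenosine to inosine, which is sequenced as guanosine. In the APOBEC1 series the linkers were 7, 27, 52 and 74 aa with FAM46C and 7 aa with GFP. In the ADARcd series they were 7, 27, 47 and 74 aa with FAM46C and 7 aa with GFP. All 10 libraries were from doxycycline-treated cells, for 48 h by the sample labels and 24 h by the series text. There was 1 library per construct and no replicate, so each test compares 2 libraries and cannot separate a construct from its library. Series of values for the fusions are given in linker order, from 7 to 74 aa.

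Reads at listed sites ranged from 627323 to 749000 per APOBEC1 library and from 160157 to 522608 per ADARcd library. Ribosomal protein genes held 0.532% to 0.631% of the APOBEC1 reads and 1.17% to 1.52% of the ADARcd reads. Of 13 erythroid marker genes, 6 had sites in the APOBEC1 series (HBB, HBG1, HBG2 and ALAS2 among them) and 6 in the ADARcd series (EPOR, ALAS2, SLC4A1 and TFRC among them). The lists hold edited positions only, so a marker without a site is not shown to be absent. The transgene showed in the listed sites: a site in TENT5C was edited in 0 of 45 reads with GFP-APOBEC1 and in 93.6% to 96.6% with the FAM46C-APOBEC1 fusions.

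Of 18071 APOBEC1 sites, 88 lay in 36 ribosomal protein genes, and all 36 could be tested among 5181 genes. Of 16768 ADARcd sites, 131 lay in 29 of the genes, of which 22 could be tested among 3968 genes. Both deaminases had sites in 16 of the genes. No source used here states how the authors chose the sites, but every listed site had 2 or more edited reads in at least 1 library. A library that alone reached 2 edited reads is called below the one that listed the site, and a share there is high in it by that choice. Of the ribosomal protein sites, 55 of 88 (62.5%) for APOBEC1 and 80 of 131 (61.1%) for ADARcd reached 2 edited reads in a single library. That library was GFP for 18 of the 55 and 46 of the 80. Each call below is therefore also given for sites that a library outside the compared pair had put on the list.

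The C-to-U sites that carry the main differences lie in 3′ UTRs, 17 to 158 bases after the last coding base. They are shown here on the strand of the gene, with the edited base in capitals. The RPS4X and RPS27L sites are shown because their genes were called higher with FAM46C, and the RPL5 site because it is in the authors' deposited table for the 7 aa fusion.
RPS4X chrX:72272653: ccctgggtgaCatgtcagatc
RPS4X chrX:72272636: gatctttgtaCgtaattaaaa
RPS27L chr15:63153931: aatgtaattaCatttggtttt
RPS27L chr15:63153910: gtaaggtataCagcagtaatc
RPS27L chr15:63153877: gtcagtttttCaataaagttt
RPL5 chr1:92841879: cagcaattttCtatgattttt
The RPS4X sites are in exon 7 of 7, 21 and 38 bases after the last coding base. The edited letter is C on the RPS4X strand, and the same positions lie within PIN4 on the opposite strand. The RPL5 site lies within FAM69A as well. None of these 21-base stretches was found in the transcripts of another gene.

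RPS4X (ENSG00000198034, chrX:72255679-72277300), a small-subunit protein encoded on the X chromosome, was edited more with 3 of the 4 FAM46C-APOBEC1 fusions than with GFP. Its edited share was 3.33% (95% interval 2.09 to 5.27) of 510 reads with GFP. In the fusions, in linker order, it was 17.9% (14.8 to 21.5) of 503 reads, 11.6% (8.97 to 14.8) of 467, 10.8% (8.42 to 13.8) of 518 and 2.15% (1.21 to 3.81) of 511. The intervals of the 3 shorter linkers lay above that of GFP, and the 74 aa interval overlapped it. The first 3 ratios to GFP were 5.37 (3.24 to 8.88), 3.47 (2.04 to 5.90) and 3.24 (1.91 to 5.50), with adjusted p-values of 4.1e-12, 0.00015 and 0.00052 by Fisher's exact test. The longest linker gave 0.646 (0.306 to 1.36), with an adjusted p of 0.79.

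Both RPS4X sites moved alike. They are close enough for the same read to be counted at each, so they are not independent of each other. The site at chrX:72272636 was edited in 3.6% of reads with GFP and in 18.3%, 10.4%, 12.4% and 2.0% with the fusions. The site at chrX:72272653 was at 3.08% with GFP and at 17.5%, 12.6%, 9.36% and 2.30%. Adjusted over all sites of the series, both passed Fisher's exact test for the shortest linker (adjusted p of 8.8e-05 and 3.1e-05), and neither passed alone for the linkers of 27 or 52 aa. Without the site with the most edited reads, the gene's adjusted p for the 27 aa linker was 0.12 by Fisher's exact test. All 5 libraries had put both sites on the list, so the listing favoured no library.

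RPS27L (ENSG00000185088, chr15:63125872-63158021), a paralog of RPS27, was edited most at 27 aa. Its 4 sites gave 1.54% (0.602 to 3.90) of 259 reads with GFP. The fusions gave 5.23% (3.29 to 8.22) of 325 reads, 10.1% (7.21 to 14) of 307, 3.99% (2.54 to 6.22) of 451 and 1.64% (0.702 to 3.78) of 305. Only the 27 aa interval lay wholly above that of GFP. The 27 aa ratio was 6.54 (2.34 to 18.3), with an adjusted p of 0.0013 by Fisher's exact test. Restricted to sites listed through a library outside the pair, the adjusted p was 0.0016. In the authors' deposited table for 27 aa, 3 RPS27L sites appear, with p-values of 0.00271, 0.0157 and 0.0392.

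In the 7 aa APOBEC1 comparison 1 of the 36 genes was called higher, where 3.76% of all genes tested were, and 1 was called lower, where 0.83% were. At 27 aa 2 were called higher (1.49% of all genes) and 1 lower (1.31%). At 52 aa 1 was called higher (1.04%) and 1 lower (0.888%). At 74 aa none was called higher (0.0965% of all genes) and 2 were called lower (5.21%). Fisher's exact test at 74 aa gave an unadjusted p under 0.05 for 3 genes, all lower. The share of all genes under that unadjusted threshold was not computed. The exact test against the overall odds ratio called none, higher (0.521% of all genes) or lower (0.425%). Counts of 1 or 2 genes do not set these genes apart from the background. At sites listed through a library outside the pair, RPS4X remained called for the 7 aa linker (1 of 31 genes higher, 4.27% of all genes, and none lower, 0.305%). RPS4X and RPS27L remained called for 27 aa (2 of 26 higher, 1.57%, and none lower, 0.375%) and RPS4X for 52 aa (1 of 32 higher, 1.05%, and none lower, 0.22%). For 74 aa none of 33 was called higher (0.122%) or lower (2.88%).

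RPL5 stood above GFP at 7 aa without passing the adjustment. This large-subunit protein, mutated in some Diamond-Blackfan anaemia, was at 3.59% (1.66 to 7.62) of 167 reads with GFP and 11% (7.01 to 17) of 154 reads with the 7 aa linker, an adjusted p of 0.19 by Fisher's exact test. The longer linkers gave 3.03%, 3.27% and 1.23%. The 7 aa library alone had listed 2 of the 4 RPL5 sites. At RPL5 sites listed through a library outside the pair, 6 of 94 reads were edited with GFP and 12 of 79 at 7 aa. The adjusted p there was 0.75 by Fisher's exact test. In 5 of 36 genes, RPL36AL, RPS27L, RPS28 and RPS3 among them, GFP was the lowest of the 5 libraries, where 4.81% of all genes showed this. GFP was the highest in another 5, RPL27A, RPL34, RPL37, RPL37A and RPS23, where 26.1% of all genes showed that. The listing favoured these directions. The GFP library alone had listed the 1 site each of RPL27A, RPL37 and RPL37A, 7 of 9 in RPS23 and 2 of 5 in RPL34. The 27 aa library alone had listed the 1 site of RPL36AL. Of all other APOBEC1 sites, 77.96% reached 2 edited reads in a single library, so the shares over all genes hold such sites too.

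Across the 36 genes, 26 lay above GFP at 7 aa and 7 below, with a median difference of 1.54 percentage points. Of all genes tested, 45.7% lay above GFP and the median difference was 0. The 27 aa linker gave 18 above (50%) and 18 below (50%), where 34.5% and 39.99% of all genes were. The 52 aa linker gave 13 (36.1%) and 18 (50%), against 30.7% and 41.6%. The 74 aa linker gave 7 (19.4%) and 21 (58.3%), against 19.1% and 51.2%, with a median difference of -1.19 points against -0.19 for all genes. Mitochondrial ribosomal protein genes, whose products form the separate ribosome of mitochondria, showed 33 of 50 above GFP and 9 below at 7 aa, with a median of 1.91 points. The comparisons share the GFP library, so its own error enters each of them. The 7 aa library alone had listed 16 of the 55 sites that reached 2 edited reads in a single library. These included the single sites of RPL36A and RPS4Y1, 3 of 5 sites in RPL23 and 2 of 3 in RPS27A. Those genes all lay above GFP at 7 aa. The 27 aa library alone had listed the single sites of RPL26L1, RPL27, RPL35A, RPL36, RPL36AL, RPL41 and RPL7A, all above GFP at 27 aa. The single sites of RPL27A, RPL37 and RPL37A, all below it, were listed by GFP alone. The listing favoured these directions, and the counts were not repeated at sites listed through a library outside the pair.

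**Figure D1:**
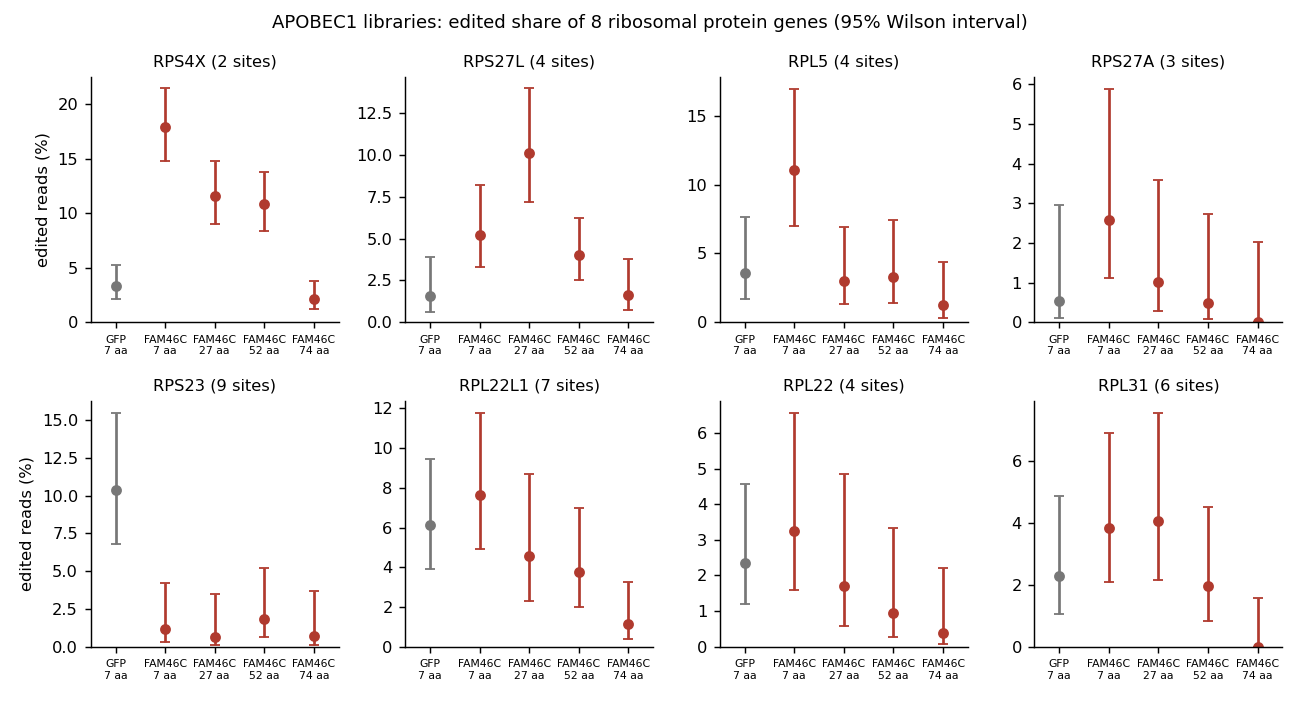
Edited reads in percent (vertical axis, each panel with its own scale from 0) for 8 ribosomal protein genes in the 5 APOBEC1 libraries (horizontal axis, construct and linker); points are the share over the gene's sites and bars are 95% Wilson intervals from counting error. RPS4X was at 17.9% at 7 aa against 3.33% with GFP, RPS27L was highest at 27 aa (10.1%), and RPS23 was at 10.4% with GFP and between 0.625% and 1.82% in the fusions.

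RPS23, a protein of the decoding region of the small subunit, was called lower with each FAM46C-APOBEC1 fusion, and this call rested on how sites were listed. Its 9 sites were edited in 20 of 193 reads with GFP (10.4%, 6.81 to 15.5). The fusions had 2 of 169, 1 of 160, 3 of 165 and 1 of 149 reads edited, with adjusted p-values of 0.0075, 0.0037, 0.047 and 0.0042 by Fisher's exact test. Of the 9 sites, 7 had been listed by the GFP library alone, and those 7 had no edited read in any fusion. Only 1 or 2 sites were listed through a library outside the pair, and there the adjusted p was 1 in all 4 comparisons. All 9 sites also lie within ATG10 on the opposite strand, up to 2432 bases after the RPS23 coding end.

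RPL22L1, a paralog of RPL22, was called lower for the 74 aa linker, with 1.13% (0.384 to 3.26) of 266 reads against 6.12% (3.91 to 9.47) of 294 with GFP and an adjusted p of 0.033 by Fisher's exact test. With the shorter linkers it was at 7.66%, 4.55% and 3.75%. GFP alone had listed 3 of its 7 sites, and at sites listed through a library outside the pair the adjusted p was 0.38.

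For the other genes with many reads, the intervals of GFP and of each fusion overlapped. RPL22, a large-subunit protein, was at 2.35% (1.20 to 4.57) of 340 reads with GFP and at 3.26%, 1.69%, 0.935% and 0.394% with the fusions. RPL31, also of the large subunit, was at 2.28% (1.05 to 4.89) of 263 reads with GFP and at 3.83%, 4.07% and 1.96% with the 3 shorter linkers. With the longest, RPL31 had no edited read among 240, which allows a share of up to 1.25%.

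Pooled over all sites of the 36 genes, the edited share was 3.25% with GFP and 6.15%, 4.60%, 3.76% and 1.24% with the fusions. The ratio to GFP was 1.89 (1.54 to 2.32), 1.41 (1.13 to 1.76), 1.16 (0.924 to 1.45) and 0.382 (0.277 to 0.526). For all other genes together the ratios were 1.45, 1.05, 1.02 and 0.409. Without RPS4X the ribosomal protein ratios became 1.37 (1.09 to 1.73), 1.10 (0.858 to 1.42), 0.850 (0.655 to 1.10) and 0.343 (0.240 to 0.490). Those intervals all include the ratio of the other genes. At sites listed through a library outside the pair the 7 aa ratio was 2.61 (2.01 to 3.38) for ribosomal protein genes and 1.90 (1.85 to 1.95) for other genes, RPS4X included.

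**Figure D2:**
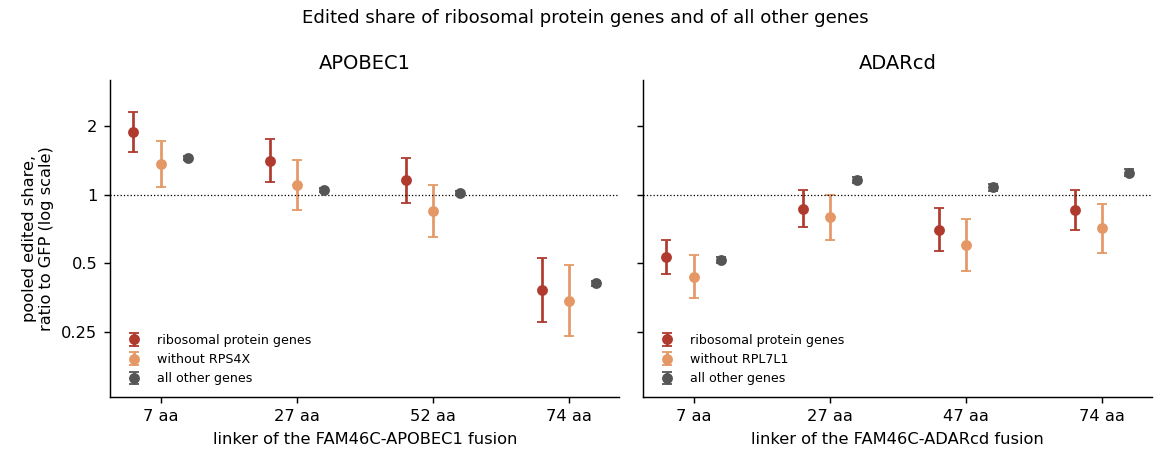
Pooled edited share of each FAM46C fusion divided by that of GFP with the same deaminase (vertical log axis) by linker length (horizontal axis), APOBEC1 left and ADARcd right; points are ribosomal protein genes, the same without the gene with the most reads, and all other genes, with 95% log-scale intervals. The APOBEC1 ratio of 1.89 at 7 aa became 1.37 without RPS4X, beside 1.45 for other genes, and over all listed ADARcd sites ribosomal protein genes lay below other genes at 27, 47 and 74 aa, a gap that was within the intervals at sites listed through a library outside the pair.

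Most C-to-U sites of these genes were in the 3′ UTR. In the gene's main transcript 65 of 88 sites (73.9%) were in the 3′ UTR and 10 (11.4%) in coding sequence, against 61.5% and 27.8% for other protein-coding genes. Of the 65, 34 lay within 100 bases of the last coding base. The edited C followed an A at 67 of 83 exonic sites (80.7%), against 63.5% in other protein-coding genes. APOBEC1 is known to prefer an A or U before its target. Coding sites included RPL31 T119I and Q118* and RPS27A T147I, numbered from the start codon.

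The 40 bases after each 3′ UTR site were searched for the poly(A) signal, AATAAA or its variant ATTAAA, on the strand of the gene. The signal is bound by the cleavage and polyadenylation machinery and lies shortly before the mRNA end. It followed 31 of the 72 ribosomal protein sites that are in a 3′ UTR of any transcript (43.1%, 22 genes) and 1695 of 11113 sites of other protein-coding genes (15.3%). It lies inside the printed RPS4X stretch at chrX:72272636 and the RPS27L stretch at chr15:63153877. At sites listed through a library outside the pair, the 7 aa ratio to GFP was 3.39 (2.43 to 4.74) with the signal and 1.60 (0.775 to 3.29) without it. Without RPS4X the ratio with the signal was 2.01 (1.26 to 3.21). Other protein-coding genes showed 2.67 (2.48 to 2.86) with the signal and 1.71 (1.67 to 1.76) without it.

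With the longer linkers the ratios with the signal were again the higher, at 2.18 (1.54 to 3.07), 2.003 (1.42 to 2.83) and 0.578 (0.364 to 0.917), against 0.852 (0.472 to 1.54), 0.512 (0.260 to 1.01) and 0.0773 (0.0185 to 0.323) without it. The last of these rested on 2 edited reads of 926. The intervals with and without the signal overlapped for the 7 aa linker and all but met for 27 aa. Without RPS4X the ratios with the signal were 1.48 (0.929 to 2.36), 1.32 (0.828 to 2.12) and 0.542 (0.301 to 0.975). Over all listed sites, the 27 aa ratio with the signal was 2.29 (1.65 to 3.19), and without RPS4X and RPS27L it was 1.13 (0.696 to 1.85). The 2 site groups hold partly different genes, and other properties of those genes were not matched.

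**Figure D3:**
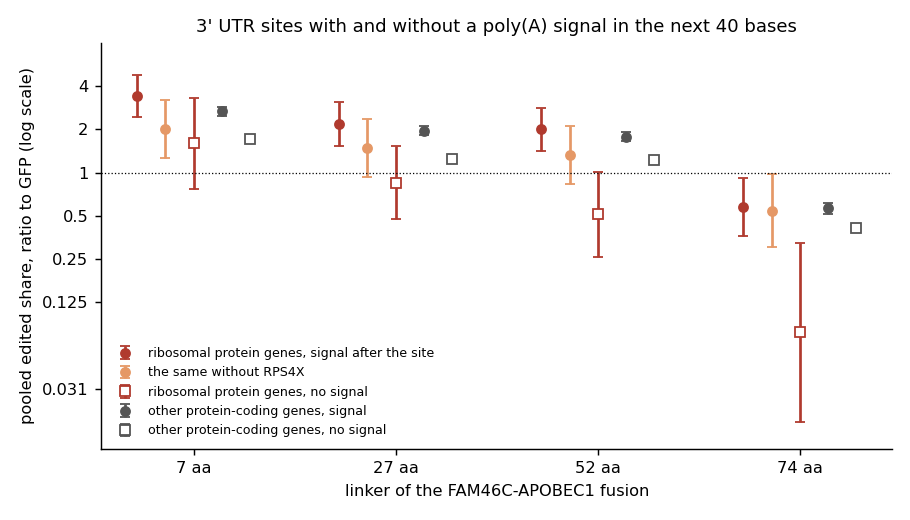
Pooled edited share of each FAM46C-APOBEC1 fusion divided by that of GFP (vertical log axis) by linker length (horizontal axis), for 3′ UTR sites followed within 40 bases by a poly(A) signal (filled circles, also without RPS4X) and those that are not (open squares), in ribosomal protein genes and in other protein-coding genes, at sites listed through a library outside the pair; bars are 95% log-scale intervals. At 7 aa ribosomal protein sites with the signal were at 3.39 and those without at 1.60, and other genes were at 2.67 and 1.71.

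The A-to-I sites of ribosomal protein genes fell elsewhere in the transcripts. Of 131 ADARcd sites, 79 (60.3%) were in the 3′ UTR, 32 (24.4%) in introns and 4 (3.05%) in coding sequence, against 16.6%, 46.6% and 25.9% in other protein-coding genes. Of the 79 sites, 1 lay within 100 bases of the coding end and 40 lay more than 1000 bases beyond it. For 47 of 91 exonic sites the 21 surrounding bases were found in at least 1 other gene, against 14 of 82 for APOBEC1. Human ADAR enzymes act on double-stranded RNA, and their known sites are mostly in repeated Alu elements. The stretches below have the edited base in capitals. The RPS3A, RPSA and RPL36 sites are shown because they carry the differences described next, and the RPL27A site as an example of a repeated stretch.
RPS3A chr4:151104500: ttcatggtgaAggcagtagtt
RPSA chr3:39412344: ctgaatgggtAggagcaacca
RPL36 chr19:5691569: aagcgggaggAgctgagcaac
RPL27A chr11:8687279: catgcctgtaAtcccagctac
The RPL27A stretch occurs in 393 other genes of the annotation, that of RPS3A in 8 and that of RPSA in 20, pseudogenes of each among them, and that of RPL36 in none. The edited form of the RPS3A and RPSA stretches occurs in none.

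**Figure D4:**
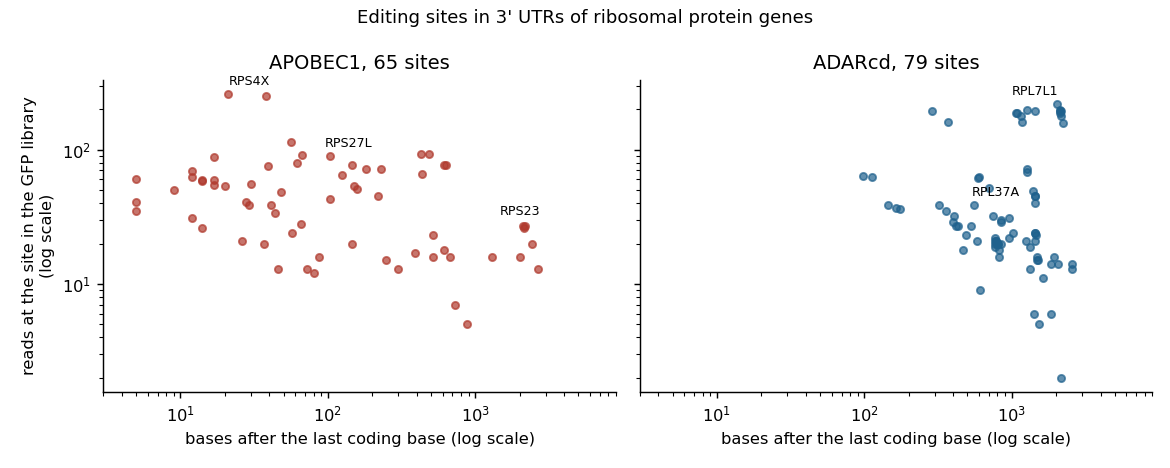
Distance of each 3′ UTR site from the last coding base of its gene (horizontal log axis, bases) and the reads at the site in the GFP library (vertical log axis), for 65 APOBEC1 sites (left) and 79 ADARcd sites (right). The 2 RPS4X sites, 21 and 38 bases after the coding end, have the most APOBEC1 reads, and 40 ADARcd sites lie more than 1000 bases beyond it, those of RPL7L1 with the most reads.

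RPS3A, a small-subunit protein, was edited less with the 7 aa FAM46C-ADARcd fusion than with GFP. Its single site, a synonymous change at codon E234E, was edited in 33 of 224 reads with GFP (14.7%). The fusions, in linker order, gave 1.33% (0.454 to 3.85) of 225 reads, 7.05% (4.38 to 11.1) of 227, 8.02% (5.07 to 12.5) of 212 and 7.73% (4.88 to 12) of 220. GFP was highest and 7 aa lowest, and the 3 longer linkers lay between them with overlapping intervals. The 7 aa ratio was 0.0905 (0.0282 to 0.291), with an adjusted p of 7.2e-06 by Fisher's exact test and of 5.5e-06 at sites listed through a library outside the pair. With the longer linkers the adjusted p by Fisher's exact test was 0.29, 0.52 and 0.56. All 5 libraries had listed the site. Over all other genes the 7 aa share was also lower, at a ratio of 0.517, and RPS3A still passed against the overall odds ratio (exact test, adjusted p = 0.024).

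RPSA and RPL23 were called lower at 7 aa as well, on weaker grounds. RPSA, a small-subunit protein also known as the laminin receptor precursor, was at 9.86% (5.96 to 15.9) of 142 reads with GFP, 0.752% (0.133 to 4.14) of 133 with the 7 aa linker, and 3.96%, 2.78% and 1.02% with the longer ones (adjusted p of 0.028 by Fisher's exact test for 7 aa). Its adjusted p was 0.082 when a library outside the pair had to list the site. RPL23, a large-subunit protein, was at 6.59% (3.81 to 11.2) of 182 reads with GFP and 0.498% (0.0879 to 2.76) of 201 with the 7 aa linker, an adjusted p of 0.035 by Fisher's exact test. It had no edited read among 65, 43 and 45 reads with the longer linkers, which allows shares of up to 4.62%, 6.98% and 6.67%. GFP alone had listed all 6 RPL23 sites.

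In the 7 aa ADARcd comparison 3 of the 22 genes were thus called lower, where 3.18% of all genes tested were, and none higher (0.0504%). The exact test against the overall odds ratio called 1 of them, RPS3A, lower, where 0.806% of all genes were, and none higher (0.302%). At sites listed through a library outside the pair, RPS3A alone was called lower among 15 genes (3.06% of all genes) and none higher (0.0365%). At 27 aa none was called higher or lower (0.454% and 0.428% of all genes), at 47 aa none (0.378% and 0.378%) and at 74 aa none (0.353% and 0.176%). Fisher's exact test gave an unadjusted p under 0.05 for 4, 3 and 2 genes with these linkers. Of them, 2 were higher and 2 lower at 27 aa, 1 higher and 2 lower at 47 aa, and 2 lower at 74 aa. The share of all genes under that unadjusted threshold was not computed. The exact test against the overall odds ratio called none. Of all genes that test called 0.353% higher and 0.428% lower for 27 aa, 0.328% and 0.403% for 47 aa, and 0.227% and 0.227% for 74 aa. None was called either when a library outside the pair had to list the site, where 0.444% of all genes were higher and 0.518% lower for 27 aa, 0.0706% and 0.353% for 47 aa, and 0.212% and 0.141% for 74 aa. All 4 fusions lay below GFP for 10 of 22 genes, where 20.9% of all genes did, and above it for none (1.81%). The 10 included RPL13, RPS12, RPS19 and RPL37A. The listing favoured this direction: the GFP library alone had listed all 6 sites of RPL23 and the 1 site of RPL41, also among the 10. Of sites with 2 edited reads in a single library, that library was GFP for 46 of 80 in ribosomal protein genes and 5648 of 14477 elsewhere. The count was not repeated at sites listed through a library outside the pair.

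RPL36, a large-subunit protein, stood higher with the longer linkers. Its 2 sites were edited in 2.67% (1.30 to 5.41) of 262 reads with GFP. The fusions gave 2.62% (1.33 to 5.09) of 305 reads, 9.57% (6.14 to 14.6) of 188, 6.95% (4.11 to 11.5) of 187 and 6.22% (3.59 to 10.6) of 193. The 27 aa interval lay above both 7 aa libraries, although the gene did not pass the adjustment (adjusted p of 0.17, 0.52 and 0.63 by Fisher's exact test for the 3 longer linkers). The 27 aa library alone had listed 1 of the 2 sites. At the other site RPL36 had a 27 aa ratio to GFP of 2.92 (1.23 to 6.91), with an adjusted p of 0.67 by Fisher's exact test. Its coding site, E89G, was at 3.7% with GFP and at 3.83%, 10.8%, 9.03% and 7.74% with the fusions. The site is in the authors' deposited tables for 27 aa and 47 aa, with p-values of 0.00941 and 0.0370.

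RPL7L1, a paralog of RPL7 that acts in ribosome assembly, held 18 of the sites used and 53.9% of the ribosomal protein reads in the GFP-ADARcd library. Its share was 3.14% (2.59 to 3.81) of 3149 reads with GFP and 2.42%, 3.36%, 2.82% and 3.76% with the fusions, and the lowest adjusted p was 0.80 by Fisher's exact test. A single site at chr6:42888592 went from 8.76% with GFP to 0.485% with the 7 aa linker, an adjusted p of 0.0079 by Fisher's exact test over all sites. RPL37A, with 18 sites, was at 12.7% (9.78 to 16.2) of 411 reads with GFP and 6.65% (4.64 to 9.44) of 421 with the 7 aa linker (adjusted p of 0.11 by Fisher's exact test), and at 12.6%, 9.15% and 9.88% with the longer linkers. Its site at chr2:216501757 had unadjusted p-values of 0.037 (27 aa) and 0.016 (47 aa) by Fisher's exact test, from 3 edited reads in each fusion.

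RPS19, the gene most often mutated in Diamond-Blackfan anaemia, was at 4.83% (3.32 to 6.99) of 538 reads with GFP and at 2.50%, 2.58%, 2.34% and 4.62% with the fusions, of which the lowest adjusted p was 0.59 by Fisher's exact test. RPL27A, a large-subunit protein, was at 12.4% (9.19 to 16.5) with GFP, and at 9.36% of 299 reads, 23.4% (15.3 to 34) of 77, 5.88% of 68 and 15.1% of 93 with the fusions (lowest adjusted p of 0.44 by Fisher's exact test). Neighbouring linkers of RPL27A thus lay on opposite sides of GFP.

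**Figure D5:**
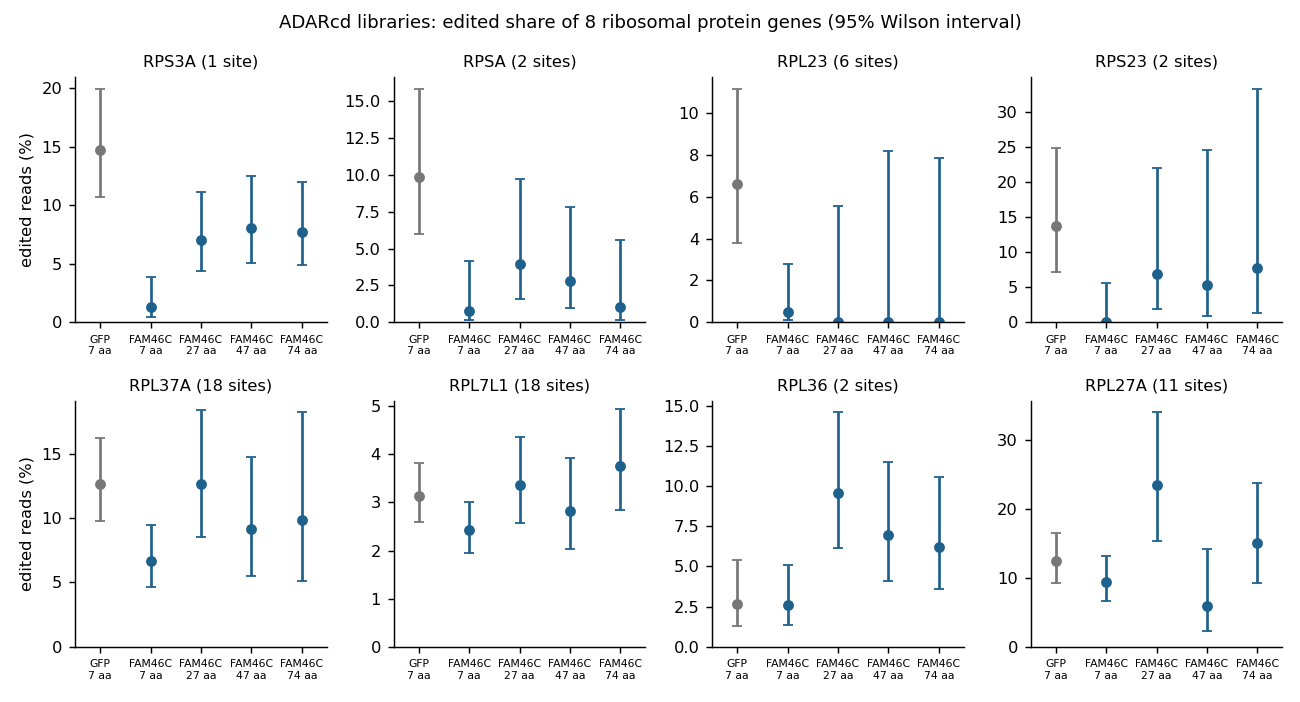
Edited reads in percent (vertical axis, each panel with its own scale from 0) for 8 ribosomal protein genes in the 5 ADARcd libraries (horizontal axis, construct and linker); points are the share over the gene's sites and bars are 95% Wilson intervals from counting error. RPS3A fell from 14.7% with GFP to 1.33% at 7 aa, and RPL36 was at 2.67% with GFP and 9.57% at 27 aa.

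Pooled over the 22 genes, the ADARcd share was 5.91% with GFP and 3.16%, 5.14%, 4.15% and 5.07% with the fusions. The ratios to GFP were 0.535 (0.450 to 0.637), 0.869 (0.722 to 1.05), 0.703 (0.565 to 0.874) and 0.858 (0.702 to 1.05). For all other genes they were 0.517, 1.16, 1.08 and 1.25, above the intervals of the ribosomal protein genes with the 3 longer linkers. Where a library outside the pair had to list the site, the ribosomal protein ratios were again the lower. The ratios of other genes then lay inside the intervals. There the 3 longer linkers gave 1.03 (0.834 to 1.27), 0.763 (0.599 to 0.973) and 0.975 (0.783 to 1.21) for ribosomal protein genes, and the 1.05, 0.907 and 1.197 of other genes lay inside those intervals. The 7 aa ratio there was 0.581 (0.473 to 0.714), above the 0.434 of other genes. RPL7L1, at a ratio of 0.770 (0.574 to 1.03), held 3149 of the 4499 GFP reads in that value. With the longer linkers RPL7L1 held 3024 of 4468, 2831 of 4484 and 3149 of 4724 GFP reads. Its ratios were 1.09 (0.781 to 1.53), 0.771 (0.513 to 1.16) and 1.20 (0.853 to 1.68). The ratio without RPL7L1 was not computed at those sites. Within 3′ UTRs alone the longer-linker ratios were 0.909 (0.725 to 1.14), 0.657 (0.494 to 0.872) and 0.903 (0.703 to 1.16) for ribosomal protein genes and 0.970, 0.790 and 1.07 for other genes, values that lie inside those intervals. In coding sequence, with 4 ribosomal protein sites, the ratios were 0.809 (0.549 to 1.19), 0.680 (0.450 to 1.03) and 0.709 (0.473 to 1.06) against 1.85, 1.92 and 2.10. In introns, with 19 sites, they were 0.365 (0.172 to 0.774), 0.442 (0.200 to 0.976) and 0.616 (0.327 to 1.16) against 0.972, 0.873 and 0.932. These ratios by region are over all listed sites. None was computed by region for sites listed through a library outside the pair, so they do not separate region from listing.

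RPS27A, which encodes ubiquitin fused to a small-subunit protein, was edited by both deaminases within a few bases. The ADARcd site at chr2:55235549, which gives Y148C, lies 1, 3 and 7 bases from 3 APOBEC1 sites. It was edited in 6.33% (2.73 to 14) of 79 reads with GFP and in 0 of 68, 4 of 66, 0 of 66 and 5 of 70 reads with the fusions. The counts of 0 allow shares of up to 4.41% and 4.55%. Its APOBEC1 sites together were at 0.535% with GFP, at 2.58%, 1.01% and 0.490% with the 3 shorter linkers, and at 0 of 186 reads with the longest. The 7 aa library alone had listed 2 of these 3 sites and the 27 aa library alone 1, so the listing favoured those libraries. At the 1 site listed outside the 7 aa pair, 0 of 62 reads were edited with GFP and 0 of 66 at 7 aa.

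RPS4X, called higher with 3 APOBEC1 fusions, had no listed ADARcd site, and neither had RPS27L. RPS3A, with the lowest adjusted p of these genes in the ADARcd series, had 1 APOBEC1 site with 31 to 39 reads, edited in 0 of 31 with GFP and in 1 of 34, 2 of 33, 2 of 37 and 0 of 39 with the fusions. Over all listed sites RPS23 was below GFP with all 4 fusions of both deaminases, but 7 of its 9 APOBEC1 sites were listed by GFP alone. Its ADARcd share of 13.8% (7.16 to 24.9) of 58 reads with GFP rested on 2 sites, of which GFP alone had listed 1. The other ADARcd site was edited in 3 of 31 reads with GFP. It was edited in 0 of 40 reads at 7 aa, 0 of 12 at 47 aa and 1 of 7 at 74 aa. At 27 aa the gene had 2 edited of 29 reads, and this site held those 2.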

How the data were processed

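Poly(A) RNA from 10 libraries, 1 per construct, was examined. The site tables hold counts of unedited and edited reads per listed position, as the authors deposited them. HISAT2 2.2.1, SAMtools 1.18, Picard 2.27.1 and the GRCh38 build are named without their roles in the submitters' processing notes. Calling, filtering and strand settings are not given in the sources used here. The authors' deposited gene tables hold p-values per site, and 48 columns of theirs that match no label here were not used. Every listed site had at least 2 edited reads in 1 or more of the 5 libraries of its deaminase.

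Sites were placed in GENCODE 29 genes (exonic before intronic, then the strand with the deaminase's base, protein-coding, smaller gene). The edited share is edited reads over all reads, summed over those sites of a gene that every library of the deaminase covered (minimum 1 read). Each fusion was compared with GFP by a two-sided Fisher's exact test, Benjamini-Hochberg adjusted over all genes tested and called at an adjusted p under 0.05. The same test against the ratio of odds over all genes was an alternative. These tests compare 2 libraries, not 2 conditions. Intervals are 95% Wilson for shares and 95% log-scale for ratios. Intervals and limits from a count of 0 (3 reads) cover counting error only. Reads are not known to be independent molecules, since the labels name no molecular identifiers. A read that covers several sites of a gene is counted at each of them, and the tests and intervals do not allow for this. No site has more than 314 reads, so read numbers are not expression levels. Both exact tests were tested on simulated read counts.

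Named genes were those called in any comparison, the 5 with most reads of each deaminase, those in the authors' deposited tables of 2 or more fusions, and single sites at an unadjusted p under 0.05 in 2 or more comparisons. The members, lists and tests were chosen with earlier results of these data known. Sites listed through a library outside the compared pair were added after the values had been seen, as was the poly(A) signal search. Python 3.11.15, SciPy 1.17.1 and pandas 2.3.3 were used. Flanking bases are from the GENCODE 29 transcripts, so intronic sites carry none. The annotation holds 1149 ribosomal protein pseudogenes, and reads that could come from either a gene or its copies cannot be assigned with certainty. Results for some items are not reported here.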

Additional observations from a re-analysis of the deposited data

How the results depend on the processing

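Each construct had 1 library, so the error between libraries is unmeasured, and depth limits most genes: the median ribosomal protein gene had 78 GFP-APOBEC1 and 80 GFP-ADARcd reads. No paired analysis was possible because each group has 1 library. No called gene changed its direction under the alternatives run. Counts of genes called against GFP fell under 10 settings and stayed within 1.5 times under 46. With at least 10 reads per site in all libraries, 1 gene was called for the 52 aa and 1 for the 74 aa APOBEC1 linker (2 each otherwise) and 1 for the 7 aa ADARcd linker (3 otherwise). With sites at the target base only, 1 was called for 52 aa. Against the overall odds ratio, 0 were called for 74 aa and 1 for the 7 aa ADARcd linker. At sites listed through a library outside the pair, chosen after seeing the data, 1 was called for 7 aa and 52 aa APOBEC1, 0 for 74 aa and 1 for 7 aa ADARcd. Those sites moved the pooled 7 aa APOBEC1 ratio from 1.89 to 2.61. Leaving out RPS4X, also chosen after seeing the data, gave pooled ratios of 1.37, 1.10 and 0.850 for 7, 27 and 52 aa, and leaving out RPL7L1 gave 0.438 for the 7 aa ADARcd linker (0.535 with it). At least 10 reads per site moved the 74 aa ADARcd ratio from 0.858 to 1.08, from below to above GFP. Fewer sites enter under the coverage, target base and listing settings. The cause of the other changes was not tested.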
